A study of Mus musculus with 8 samples.

Results

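The vomeronasal type 2 receptor (Vmn2r) genes were read in RNA sequencing libraries of regulatory T cells (Tregs), a class of CD4 T cell that holds immune reactions in check. The family is not expected in T cells and was read here as a measure of background. Its members were the 125 genes, of 57180 in the deposited table, whose symbol is Vmn2r followed by a number alone. The mouse Treg cells were sorted by flow cytometry, and the labels sort the 8 libraries into 3 of chimera KO and 5 of chimera WT (KO and WT libraries below). No label gives the deleted gene, strain, age or sex or says which cells of a chimera carry the deletion, and none ties a library to 1 animal. P-values therefore measure the spread between these libraries, and the level of a targeted gene could not be read as a check of the labels.

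Vmn2r genes encode class C G-protein-coupled receptors with a large extracellular domain. They are known from sensory neurons of the basal layer of the vomeronasal organ, where they detect peptide and protein cues such as exocrine gland-secreting peptides (ESPs) and signal through the G protein subunit Gnao1 and the channel Trpc2. Each such neuron usually carries a receptor of the large clades together with a broadly expressed receptor of the family C group, Vmn2r1 to Vmn2r7. In bulk libraries, fewer cells that make an RNA and less of it per cell cannot be told apart.

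Library totals were 8.48, 4.57 and 4.31 M (mega) counts in KO replicates 1 to 3, against 10.59, 10.7, 11.2, 17.98 and 10.54 M in WT replicates 1 to 5. WT replicate 4 stood apart, with 8201 genes of at least 10 counts, against 9422 in WT replicate 5 and 12398 to 14245 in the other libraries. TMM factors, which multiply the library sizes before levels are normalised, were 1.36, 1.49 and 1.32 in KO libraries and 1.15, 1.09, 1.08, 0.400 and 0.689 in WT libraries. All 12 Treg and T cell markers, Foxp3 among them, reached at least 3 counts in each library, a bar that does not establish Treg identity. Foxp3 had 304, 18 and 135 counts in KO libraries, against 144, 422, 499, 22.3 and 8.99 counts in WT libraries. Ikzf2 ranged from 577 counts in WT replicate 4 to 53430 in WT replicate 2. The summed level of the 12 markers was 2476 to 6696 CPM (counts divided by the library total in M) in KO and 6476 to 10401 CPM in WT libraries. All 12 had negative log2 changes (KO minus WT), while 43.2% of all genes tested had positive ones. At an adjusted p under 0.05, edgeR called 0 of the 12 and 0% of all genes lower, and DESeq2 called 6 (50%) lower, against 11.1% of all genes. At an unadjusted p under 0.05 edgeR had 6 (50%) lower, against 6.43% of all genes.

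The 3 neighbouring members Vmn2r114, Vmn2r115 and Vmn2r116 on chromosome 17 show how alike genes of the family can be. Vmn2r115 encodes a receptor of the peptide ESP22, and Vmn2r116 a receptor of ESP1, a pheromone of male tear fluid. The windows are those of the RefSeq table on GRCm38.p6, which holds 115 of the 125 members, and run from 250 bases before to 50 bases after the RefSeq start. The gene starts in GENCODE M21, used for gene coordinates below, lie further upstream. By them 26 bases of the window of Vmn2r114, 14 of Vmn2r115 and 51 of Vmn2r116 come before the gene, and the rest lies inside it. Capitals mark the 10 positions at which the windows differ among the 3 genes. Vmn2r114 lies at chr17:23312264-23312563 on the minus strand, Vmn2r115 at chr17:23343727-23344026 on the plus strand and Vmn2r116 at chr17:23384553-23384852 on the plus strand.
Vmn2r114: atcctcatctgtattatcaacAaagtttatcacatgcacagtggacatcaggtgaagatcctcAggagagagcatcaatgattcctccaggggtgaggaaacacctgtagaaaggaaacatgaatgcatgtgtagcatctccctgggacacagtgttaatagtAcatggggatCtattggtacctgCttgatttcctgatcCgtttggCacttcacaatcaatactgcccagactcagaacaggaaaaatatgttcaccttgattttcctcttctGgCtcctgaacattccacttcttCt
Vmn2r115: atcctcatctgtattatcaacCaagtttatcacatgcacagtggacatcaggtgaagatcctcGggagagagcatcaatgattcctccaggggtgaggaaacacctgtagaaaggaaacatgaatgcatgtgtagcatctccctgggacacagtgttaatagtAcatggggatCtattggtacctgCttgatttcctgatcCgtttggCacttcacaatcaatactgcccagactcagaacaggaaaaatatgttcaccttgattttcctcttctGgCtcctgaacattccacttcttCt
Vmn2r116: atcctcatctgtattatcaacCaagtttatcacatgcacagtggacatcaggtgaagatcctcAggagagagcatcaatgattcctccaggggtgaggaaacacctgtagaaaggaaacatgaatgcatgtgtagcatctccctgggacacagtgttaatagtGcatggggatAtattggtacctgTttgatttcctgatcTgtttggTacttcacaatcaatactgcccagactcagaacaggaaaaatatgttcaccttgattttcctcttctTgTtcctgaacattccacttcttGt
The windows of Vmn2r114 and Vmn2r115 shared 298 of 300 bases (99.33%), and each shared 291 with that of Vmn2r116 (97.0%). The counts of the 3 genes were far less alike, as given below.

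The family was present in each library, at a summed level higher in each KO library than in each WT library. Summed Vmn2r levels were 5258, 11321 and 13361 CPM in KO replicates 1 to 3, against 3352, 3345, 2999, 548 and 2071 CPM in WT replicates 1 to 5. The groups did not overlap, and the means were 9980 ± 4215 CPM in KO and 2463 ± 1191 CPM in WT libraries (SD, n = 3 and 5), a ratio of 4.05. The level in KO replicate 1 was the lowest of its group and that in WT replicate 4 the lowest of all. After TMM scaling the levels were 3853, 7614 and 10141 CPM in KO libraries, against 2911, 3057, 2782, 1370 and 3007 CPM in WT libraries, still without overlap. No test was made of a sum over members.

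The difference was smaller in counts not divided by the library total. The family held 44573, 51709 and 57647 counts in KO libraries, against 35492, 35661, 33509, 9853 and 21842 counts in WT libraries. The mean was 1.88 times as high in KO as in WT libraries, with no overlap. The KO libraries were also the 3 with the lowest totals, so that genotype and depth cannot be told apart here. The part of the totals in the result was not tested beyond this value and the thinning below.

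**Figure D1:**
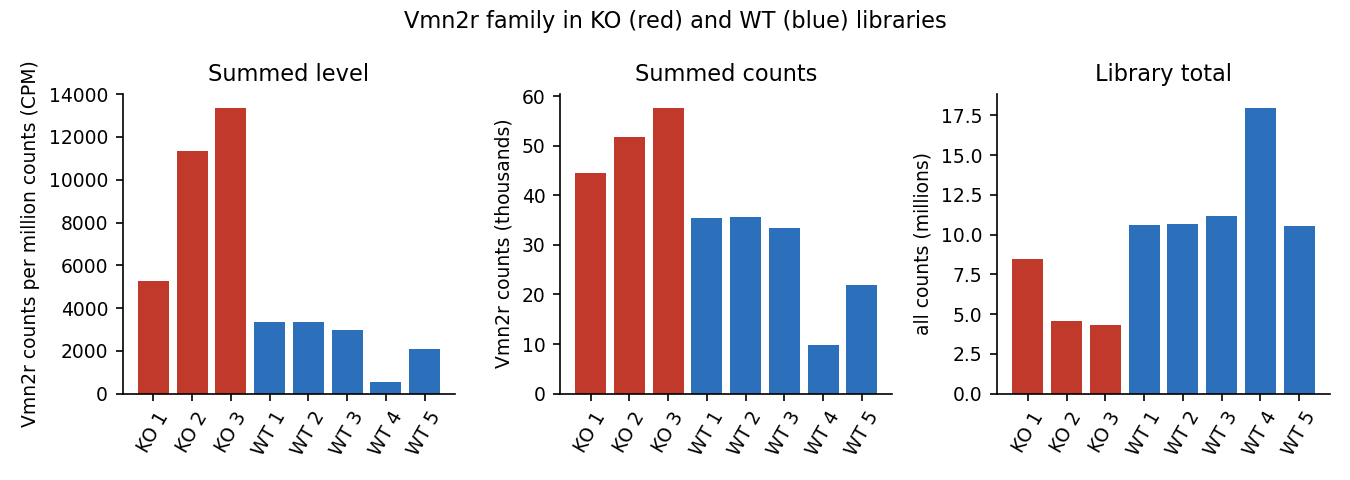
Summed Vmn2r level (left, CPM), summed Vmn2r counts (middle, in units of 1000) and the total of all counts (right, M) in the 3 KO libraries (red bars) and the 5 WT libraries (blue bars), 1 bar per library. Levels were 5258 to 13361 CPM in KO and 548 to 3352 CPM in WT libraries, while the totals were lower in KO (4.31 to 8.48 M) than in WT libraries (10.54 to 17.98 M).

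The number of members seen differed less than their level. At least 3 counts were found for 78, 93 and 88 members in KO libraries, against 84, 91, 83, 56 and 68 in WT libraries. These numbers overlapped between the groups, with means of 86.3 ± 7.64 in KO and 76.4 ± 14.2 in WT libraries (SD, n = 3 and 5). The mean difference of 9.93 members was 4.83 without WT replicate 4 and 0.333 without WT replicates 4 and 5. With each library thinned to 4.31 M counts, 68, 95 and 88 members were seen in KO libraries, against 74, 76, 71, 38 and 59 in WT libraries. Thinning started from counts rounded to whole numbers, so a value just under 3 could reach the bar. The thinned numbers are therefore not strictly comparable with those above, as the rise from 93 to 95 in KO replicate 2 shows.

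Across the libraries, 48 members reached at least 3 counts in all 8, and 110 did so in at least 1. Another 10 had some counts but under 3 in each library, and 5 (Vmn2r62, Vmn2r80, Vmn2r89, Vmn2r91 and Vmn2r98) were at 0 throughout. A count of 0 allows up to 3 counts, which is 0.354 to 0.695 CPM in KO and 0.167 to 0.285 CPM in WT libraries, for counting error alone. At the other end, 31 members had at least 10 counts in all 8 libraries and 11 had at least 1000 in some library.

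Most of the sum rested on a small number of members. Vmn2r53, a receptor known to promote aggression between male mice, had 14338, 17878 and 19220 counts in KO libraries, against 11492, 11416, 10871, 2158 and 7610 counts in WT libraries. Each KO library was above each WT library in counts as well as in level. Vmn2r53 was the gene of rank 38, 16 and 15 by counts in KO libraries, against rank 75, 76, 99, 1669 and 162 in WT libraries. Its share of the family's counts was 32.2, 34.6 and 33.3% in KO libraries, against 32.4, 32.0, 32.4, 21.9 and 34.8% in WT libraries. The share thus lay within 3 percentage points in 7 libraries and was lower in WT replicate 4.

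The gene lies at chr7:12562851-12608788 on the minus strand (mm10, coordinates of GENCODE M21, the GRCm38 release). Its length in the deposited table, 21388 bases, is the longest of the family, of which 18622 are annotated as 3′ untranslated region. Per length, Vmn2r53 had 79.1, 183 and 208 CPM per kb in KO libraries, against 50.7, 50.1, 45.5, 5.61 and 33.7 CPM per kb in WT libraries. On that scale Vmn2r114 was higher, with 128, 280 and 320 CPM per kb in KO libraries, against 82.0, 76.4, 74.9, 12.6 and 63.5 CPM per kb in WT libraries.

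Vmn2r114 (chr17:23285392-23312537, minus strand) was second in counts in 7 of 8 libraries, with 8936, 10515 and 11372 in KO libraries, against 7147, 6701, 6883, 1869 and 5507 in WT libraries. Vmn2r115 (chr17:23343741-23362538, plus strand) had 1344, 1683 and 2283 counts in KO libraries, against 1179, 1130, 1329, 161 and 519 counts in WT libraries. Vmn2r116 (chr17:23384604-23404422, plus strand) had 49.5, 52.0 and 40.3 counts in KO libraries, against 50.7, 46.7, 27.6, 2.35 and 13.2 counts in WT libraries. The groups did not overlap in counts for Vmn2r114 and Vmn2r115 and overlapped in counts for Vmn2r116. In CPM, with and without TMM scaling, each KO library was above each WT library for all 3 genes. Normalised levels of Vmn2r116 were 4.32 to 7.66 CPM in KO and 0.278 to 4.18 CPM in WT libraries. Per length, Vmn2r115 had 30.4 CPM per kb and Vmn2r116 had 1.10 CPM per kb in KO replicate 1, against 21.3 and 0.898 CPM per kb in WT replicate 1. The 3 genes with these near-identical windows were therefore far apart in level, in the same order in each library.

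Vmn2r120 had rank 3 in the family by counts in 4 libraries, KO replicates 1 and 2 and WT replicates 1 and 2, and lower in the other 4, where Vmn2r94, Vmn2r96 or Vmn2r59 were among the genes above it. It had 2680, 3169 and 2756 counts in KO libraries, against 1994, 2126, 1516, 174 and 883 counts in WT libraries. The 10 members with the highest CPM summed over the libraries held 80.2, 82.7 and 80.9% of the family's counts in KO libraries, against 81.2, 80.0, 77.7, 87.3 and 84.4% in WT libraries. Vmn2r94, Vmn2r79, Vmn2r59, Vmn2r115, Vmn2r76, Vmn2r108 and Vmn2r97 made up the rest of these 10. Vmn2r124, Vmn2r90, Vmn2r112, Vmn2r92, Vmn2r29, Vmn2r96, Vmn2r56, Vmn2r60, Vmn2r1 and Vmn2r102 brought the share to between 89.2 and 92.2% in the 8 libraries.

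**Figure D2:**
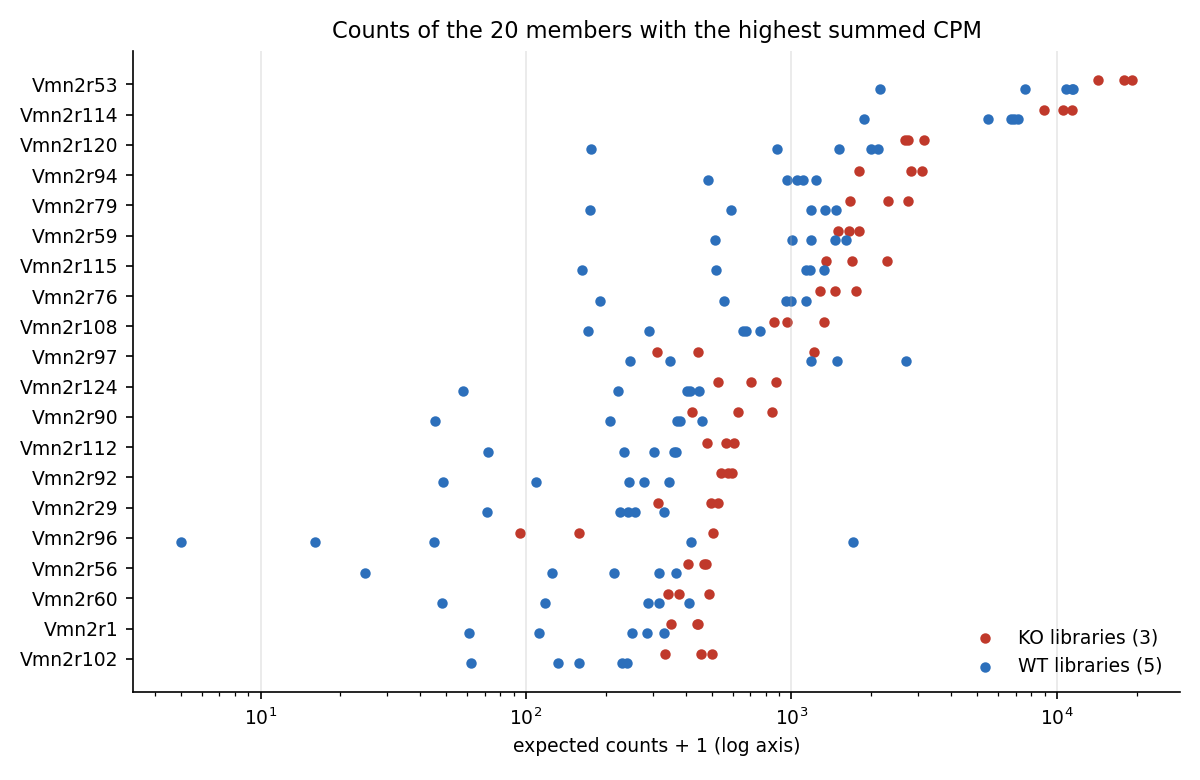
Expected counts plus 1 (log axis) of the 20 members with the highest summed CPM, 1 row per member and 1 point per library, with KO libraries (red) above and WT libraries (blue) below the row's line. Vmn2r53 and Vmn2r114 lead in 7 of 8 libraries, the lowest blue point of most rows is WT replicate 4, and Vmn2r97 and Vmn2r96 spread across the groups.

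Other members with known ligands had fewer counts than Vmn2r115. Vmn2r26, a receptor of peptides that bind MHC class I molecules, had 127, 130 and 232 counts in KO libraries, against 104, 108, 106, 10.44 and 20.2 counts in WT libraries. Vmn2r88, a receptor of haemoglobin, had 11.2, 11.6 and 17.9 counts in KO libraries, against 12.8, 9.50, 8.89, 2 and 4.19 counts in WT libraries. The groups overlapped in counts for Vmn2r88 and not for Vmn2r26. In CPM each KO library was above each WT library for both genes, and after TMM scaling for Vmn2r26 alone. In WT replicate 5, where summed haemoglobin and other erythroid transcripts were 6188 CPM, Vmn2r88 stood at 0.397 CPM, within the range of the WT libraries. That level rests on 4.19 counts, and no relation to the erythroid transcripts was tested.

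The 7 family C genes, partners of the other receptors in the vomeronasal organ, summed to 98.5, 222 and 218 CPM in KO libraries, against 74.8, 67.9, 46.7, 7.66 and 19.4 CPM in WT libraries. Vmn2r1 led them with 352, 444 and 441 counts in KO libraries, against 284, 331, 249, 60.2 and 111 counts in WT libraries. Vmn2r2 had 155, 217 and 98.3 counts in KO libraries, against 158, 103, 33.7, 0.920 and 2.94 counts in WT libraries. Family C took 1.63 to 1.97% of the family's counts in KO and 0.937 to 2.23% in WT libraries. The broadly expressed partner group was thus a small part of the Vmn2r counts in each library.

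Many genes that a vomeronasal neuron would bring along were at or near 0, while others had more counts. Omp, the marker of mature olfactory and vomeronasal neurons, Gap43, a marker of immature ones, and the G protein subunits Gng8 and Gng13 were at 0 in all 8 libraries. Trpc2 had 5.27, 0 and 0 counts in KO libraries, against 0, 10.14, 0, 0 and 0 counts in WT libraries. Of 9 H2-Mv genes, class Ib MHC genes co-expressed with Vmn2r genes, 8 were under 3 counts in each library, and H2-M10.1 reached 5 counts in KO replicate 2. Of 7 formyl peptide receptors, 5 were under 3 counts throughout, and Fpr2 led with 15 counts in WT replicate 1.

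The 13 signalling partners summed to 68.9 to 160 CPM in KO and 59.2 to 267 CPM in WT libraries, mostly from Gnai2, Plcb2 and Plcb4, which other cells also use. Of these 13 genes, 6 were under 3 counts throughout, 3 were tested and all 3 had negative log2 changes. The 12 genes of vomeronasal neuron identity summed to 19.2 to 57.8 CPM in KO and 3.06 to 15.0 CPM in WT libraries, without overlap. Nrp2, Meis2 and Robo2 led that list. Of its 12 genes, 5 were under 3 counts throughout, Lhx2 was at 0, and the 4 tested had positive log2 changes without a call by edgeR. DESeq2 gave no adjusted p for Ncam1 and did not call Meis2, Nrp2 or Stmn2. Ncam1 had 11.4, 100 and 7.4 counts in KO libraries, against 9.24, 7.84, 10.75, 0 and 2.17 counts in WT libraries. Robo2 had 97 counts in KO replicate 2. The part of these genes in the Vmn2r values was not tested.

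The class C relatives outside the nose were mostly low as well. Of these 15 metabotropic glutamate, GABA, calcium-sensing and taste receptors, 7 were under 3 counts throughout, Tas1r1 and Tas1r2 among them at 0. Gabbr1, a subunit of the GABA type B receptor, made up most of the list, with 1719, 1837 and 4368 counts in KO libraries, against 2143, 1010, 3253, 143 and 730 counts in WT libraries. Of the 4 tested, 3 had positive log2 changes (Gabbr1, Grm5 and Grm8) and Tas1r3 a negative one, with 0 called by edgeR. DESeq2 called Grm8 higher (adjusted p 0.034), and edgeR's log2 change for it was 2.67 (SE 1.14, adjusted p 0.335).

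The other chemoreceptor families ran in parallel with the Vmn2r genes across the libraries. The 231 Vmn1r genes, receptors of the apical vomeronasal layer, summed to 2958, 6122 and 7572 CPM in KO libraries, against 1805, 1667, 1641, 169 and 830 CPM in WT libraries. The 1156 odorant receptor genes (Olfr) summed to 12101, 30586 and 31983 CPM in KO libraries, against 7292, 6720, 6211, 680 and 4300 CPM in WT libraries. Their leaders were Vmn1r81, with 4440, 5248 and 6078 counts in KO libraries, against 3612, 3317, 3412, 675 and 1940 counts in WT libraries, and Or5m5, with 21163, 41685 and 25747 counts in KO libraries, against 14718, 14181, 7901, 459 and 13927 counts in WT libraries. Of 118 Vmn2r pseudogenes, 6 were tested, and Vmn2r-ps36 led with 943, 1746 and 1638 counts in KO libraries, against 785, 600, 460, 73.8 and 608 counts in WT libraries. The trace amine and bitter taste receptor sets were far lower, led by Taar7a with at most 496 counts and Tas2r124 with at most 26. In each of the 8 libraries the order of these sums was Olfr above Vmn2r above Vmn1r, and WT replicate 4 was lowest for each family. The sums run over unlike numbers of genes. Divided by the summed gene length of each family, Vmn2r was above Olfr and Vmn1r in each library. Vmn2r had 7.18 CPM per kb in KO replicate 1, against 4.79 for Olfr and 4.46 for Vmn1r. In WT replicate 4 it had 0.748 CPM per kb, against 0.269 for Olfr and 0.255 for Vmn1r.

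Relative to these families the Vmn2r genes were not higher in KO libraries. There were 0.349, 0.308 and 0.338 Vmn2r counts per count of Vmn1r and Olfr genes in KO libraries, against 0.368, 0.399, 0.382, 0.645 and 0.404 in WT libraries. Each KO library was below each WT library on that scale, the reverse of the order in CPM. Per Vmn1r count, the Vmn2r genes had 1.78, 1.85 and 1.77 counts in KO libraries, against 1.86, 2.01, 1.83, 3.24 and 2.495 counts in WT libraries, with overlap. In 6 libraries that ratio lay between 1.77 and 2.01.

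**Figure D3:**
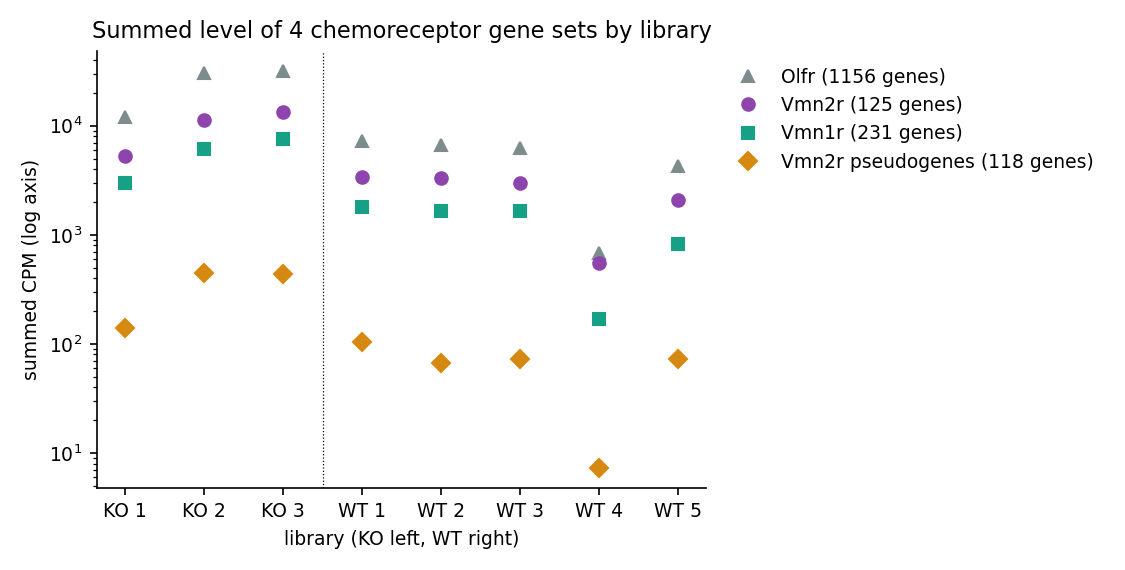
Summed level (CPM, log axis) of the Olfr (triangles), Vmn2r (circles), Vmn1r (squares) and Vmn2r pseudogene (diamonds) sets in each library, KO to the left and WT to the right of the dotted line. The sets keep their order in each library, with Vmn2r at 5258 to 13361 CPM in KO and 548 to 3352 CPM in WT libraries, and WT replicate 4 lowest for each set.

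Within the family, the members' profile was similar from library to library. Across the 125 members, Pearson's r of log2 levels (pseudocount 0.1 CPM) ran from 0.777, between KO replicate 3 and WT replicate 4, to 0.952, between KO replicates 2 and 3. The members share libraries, and similar sequences, so this is a description over genes and carries no test. The steadiest share was that of Vmn2r114, which took 20.05, 20.3 and 19.7% of the family's counts in KO libraries, against 20.1, 18.8, 20.5, 19.0 and 25.2% in WT libraries. Vmn2r76 took 2.86, 2.83 and 3.02% in KO libraries, against 3.199, 2.80, 2.84, 1.93 and 2.55% in WT libraries.

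A few members were patchy and did not follow the rest of the family. Their levels overlapped between the groups, although DESeq2 called Vmn2r49 lower in KO libraries. Vmn2r97 (chr17:18914300-18958087, plus strand) had 1220, 445 and 310 counts in KO libraries, against 1187, 1490, 349, 2708 and 246 counts in WT libraries. It took 27.5% of the family's counts in WT replicate 4, against 0.538 to 4.18% in the other libraries, and was the leading member there. Vmn2r96 (chr17:18573151-18616003, plus strand) had 94.0, 158 and 508 counts in KO libraries, against 15.1, 416, 1703, 4.01 and 44.0 counts in WT libraries. WT replicates 2 and 3 bracket KO replicate 3 for this gene, and its share of the family differed 125-fold between libraries.

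Vmn2r84 (chr10:130377925-130394332, minus strand) had 424, 29.2 and 70.5 counts in KO libraries, against 17.5, 285, 24.4, 7 and 46.0 counts in WT libraries, high in 1 library of each group. Vmn2r12 had 1, 3 and 2 counts in KO libraries, against 63.6, 2, 118, 0 and 0 counts in WT libraries. Vmn2r49 had 0, 1.82 and 0 counts in KO libraries, against 10.29, 181, 0, 122 and 399 counts in WT libraries. Its neighbour Vmn2r48 had 48.6, 45.2 and 16.9 counts in KO libraries, against 13.4, 0, 15.6, 171 and 199 counts in WT libraries. Of all 31-base words in annotated transcripts of Vmn2r48 and Vmn2r49, 99.9 and 93.1% also occur in another gene, so the split of reads between them and their copies is uncertain. Vmn2r12 was chosen with its values known.

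**Figure D4:**
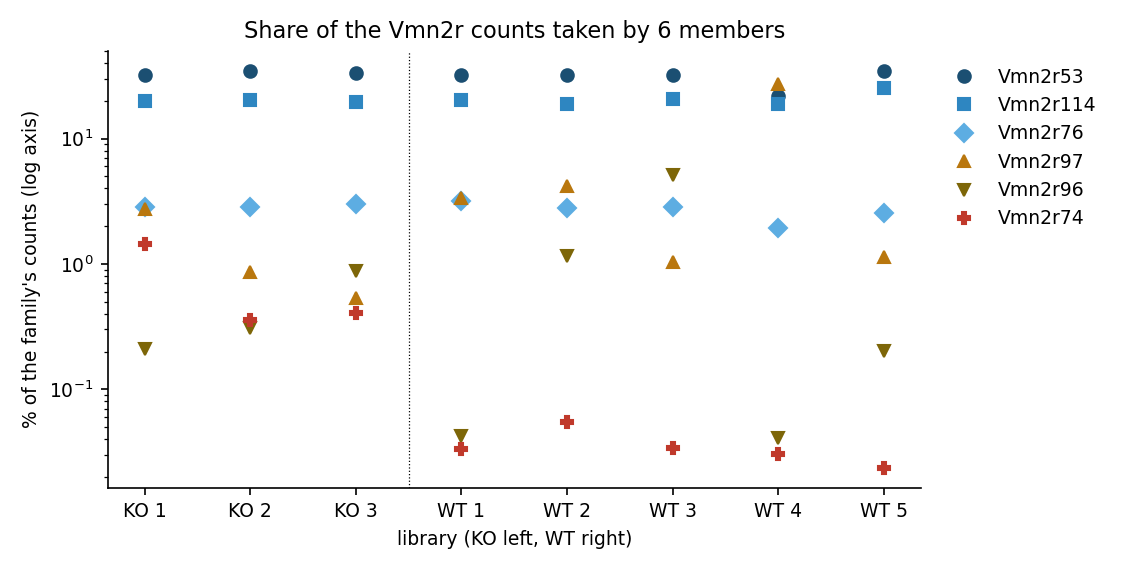
Percent of the family's counts (log axis) taken by Vmn2r53, Vmn2r114, Vmn2r76, Vmn2r97, Vmn2r96 and Vmn2r74 in each library, KO to the left and WT to the right of the dotted line. Vmn2r53 and Vmn2r114 stay near 32 and 20% in most libraries, Vmn2r97 reaches 27.5% in WT replicate 4, and Vmn2r74 takes 0.359 to 1.45% in KO and 0.0236 to 0.0553% in WT libraries.

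Member by member, edgeR called no Vmn2r gene between the groups, whereas DESeq2 called 8 higher and 1 lower in KO libraries. Of the 125 members, 72 passed the filter on low counts, and 66 of these had positive and 6 negative log2 changes, KO minus WT. The share of positive changes was 91.7%, against 43.2% over the 14755 genes tested. The median log2 change was 1.56 over the tested members and -0.42 over all genes tested. A member could pass the filter through its KO libraries alone, so these values describe the tested members and support nothing about the 53 others.

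With edgeR's quasi-likelihood test, 0 members and 0% of all genes were called higher, and likewise lower, at a Benjamini-Hochberg adjusted p under 0.05. The smallest adjusted p of a member was 0.304. At an unadjusted p under 0.05 there were 15 members higher, or 20.8% of those tested, against 7.96% of all genes, and 1 member lower, or 1.39%, against 6.43% of all genes. DESeq2 called 8 members (11.1%) higher, against 7.13% of all genes, and 1 lower, against 11.1% of all genes. The 8 were Vmn2r74, Vmn2r79, Vmn2r108, Vmn2r92, Vmn2r103, Vmn2r118, Vmn2r70 and Vmn2r110, and the member called lower was Vmn2r49.

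Over all 125 members, without any filter, 34 (27.2%) had normalised CPM in each KO library above each WT library, against 4.75% of all genes of the table, and 0 were below in each, against 1.2% of all genes. Without WT replicates 4 and 5 these were 40 members above, against 5.84% of all genes, and 1 below, against 3.23%. On CPM without TMM scaling, 46 were above, against 6.76% of all genes, and 0 below, against 0.463%. Most of the 125 members are thus not separated by group on either scale, but 53 of them had too few counts to be tested. Of the 72 tested members, 32 (44.4%) had each KO library above each WT library on normalised CPM, against 13.15% of all genes tested. On CPM, 43 (59.7%) did so, against 18.86%. Members in these last shares could pass the filter through KO libraries alone. Vmn1r and Olfr genes had like values, with 68 of 71 and 268 of 283 tested genes positive and medians of 1.60 and 1.66 on the log2 scale.

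**Figure D5:**
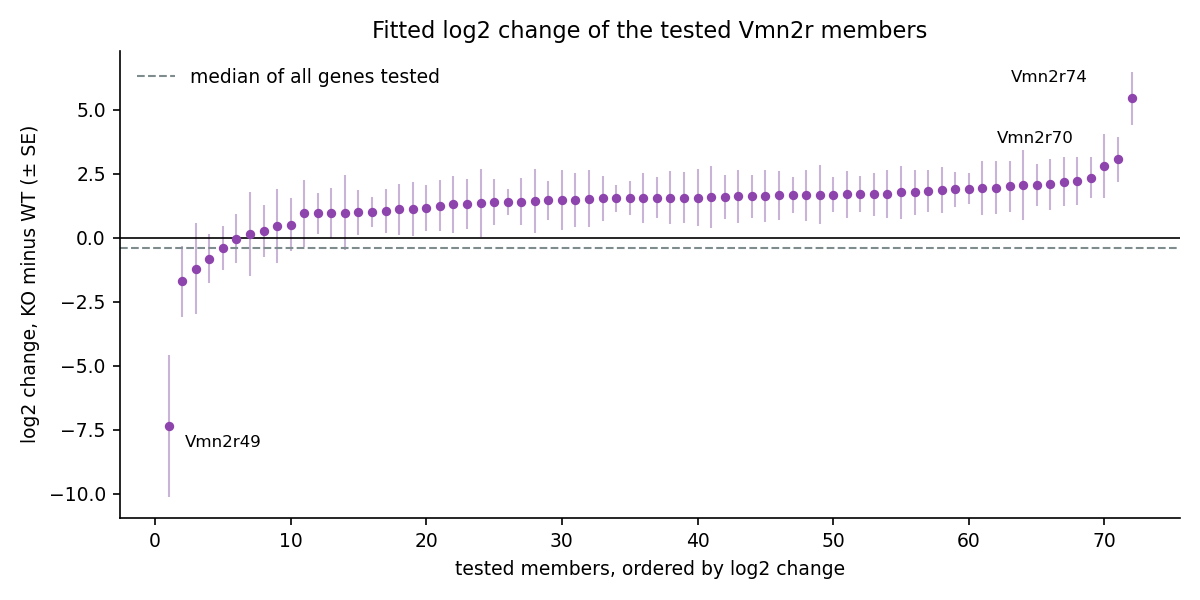
Fitted log2 change (KO minus WT) with its standard error for the 72 tested members, in order of their change, with the median of all genes tested (-0.42) as a dashed line. Of the points, 66 lie above 0 and 6 below, Vmn2r74 is at 5.44 and Vmn2r49 at -7.35, and the bars of most members exceed 0.5 on the log2 scale.

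Vmn2r74 (chr7:85944614-85961629, minus strand) stood out among the members in its difference between groups. It had 645, 186 and 234 counts in KO libraries, against 11.8, 19.7, 11.3, 3 and 5.15 counts in WT libraries. Each KO library was above each WT library, although the WT totals were higher. Normalised levels of the gene averaged 41.4 ± 14.2 CPM in KO and 0.944 ± 0.485 CPM in WT libraries (SD, n = 3 and 5). It differed by 5.44 on the log2 scale (SE 1.03), and the adjusted p was 0.304 by edgeR and 9.9e-13 by DESeq2. Under the other edgeR alternatives the log2 change was 5.09 to 6.01 and the adjusted p 0.221 to 0.626.

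The genes beside Vmn2r74 did not show the same separation. Vmn2r73 (chr7:85850673-85876266) had 200, 347 and 394 counts in KO libraries, against 240, 265, 377, 5.63 and 20.3 counts in WT libraries. Vmn2r75 (chr7:86145286-86171778) had 42.1, 60.9 and 125 counts in KO libraries, against 23.0, 61.1, 33.3, 6.63 and 20.5 counts in WT libraries. Both overlapped between the groups in counts, with log2 changes of 1.57 (SE 1.21) and 2.08 (SE 1.0). Of the 31-base words of Vmn2r74, 8.08% occur in another gene, a low share for the family. Vmn2r70, in the same cluster of 15 members, had 46.4, 28.7 and 4.73 counts in KO libraries, against 9.47, 3.32, 1.09, 3 and 2.5 counts in WT libraries, and a log2 change of 3.06 (SE 0.89).

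The leading members had smaller changes with smaller errors. Normalised levels of Vmn2r53 averaged 2418 ± 1087 CPM in KO and 834 ± 303 CPM in WT libraries (SD, n = 3 and 5), with a log2 change of 1.54 (SE 0.52) and an edgeR adjusted p of 0.325. Those of Vmn2r114 averaged 1440 ± 621 CPM in KO and 550 ± 180 CPM in WT libraries, with a log2 change of 1.39 (SE 0.50) and the same adjusted p. For both, each KO library was above each WT library. Vmn2r97 had a log2 change of -0.82 (SE 0.95) and Vmn2r96 one of 0.13 (SE 1.64), and their groups overlapped. Without WT replicate 4 the change was 0.067 for Vmn2r97, and leaving out 1 library at a time gave -1.26 to 1.92 for Vmn2r96, so neither had a settled direction. Without WT replicates 2 and 3, the WT libraries with the most Vmn2r96 counts, the change of that gene was 3.95 (edgeR adjusted p 0.346). The 6 negative changes were those of Vmn2r49 (-7.35), Vmn2r72 (-1.70), Vmn2r48 (-1.21), Vmn2r97, Vmn2r28 (-0.39) and Vmn2r11 (-0.04). The fitted value of Vmn2r49, with at most 1.82 counts in a KO library, depends on the prior count and is no bound. The change of Vmn2r48 was 2.56 without WT replicates 4 and 5, and that of Vmn2r11 also turned positive in some alternatives.

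The genes of the family lie in 18 clusters on 9 chromosomes, with gaps of over 1 Mb between clusters. GENCODE M21 lists 120 members as protein-coding, 3 as unprocessed and 2 as polymorphic pseudogenes, and 110 have a longest coding transcript of 6 exons. The cluster of 4 members with Vmn2r53 held 33.2, 35.4 and 34.2% of the family's counts in KO libraries, against 33.4, 32.9, 33.1, 22.1 and 35.4% in WT libraries. The chromosome 17 cluster of 8 members with Vmn2r114 held 24.9, 25.01 and 25.4% in KO libraries, against 25.2, 23.7, 26.2, 21.5 and 28.9% in WT libraries. By contrast, 24 members of a chromosome 7 cluster held 1.52 to 2.02% in KO and 1.71 to 4.44% in WT libraries. The number of genes in a cluster thus did not set its share.

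Longer members had more counts. Spearman's rho across members between summed CPM and table length was 0.531 (n = 125), that with 3′ untranslated length 0.545 (n = 122) and that with coding length 0.104 (n = 122). The members have a median length of 4581 bases in the table, and Vmn2r53 is the longest. Lengths in the table equalled that of the longest coding transcript for 99 members, and for Vmn2r76 the table's 2562 bases leave out an annotated 3′ untranslated region of 23185 bases, so its level per length is not comparable.

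Sequence shared with other genes was common. In the median member, 30.1% of 31-base words also occur in another gene (quartiles 18.1 and 56.1%), against 1.89% in 21829 other protein-coding genes. Spearman's rho of that share with summed CPM was -0.483 (n = 125), and that of the share of words found in 10 or more genes was -0.053 (n = 125). Summed CPM also rose with length, as given above, and the part of length in the first value was not tested. Values were not whole numbers for 81.7 to 90.9% of members with counts, against 46.3 to 57.1% of all genes. Exons of 13 members overlap those of another gene, among them Vmn2r70 with Vmn2r71 and Vmn2r24 with Vmn2r25. The kit does not mark strand, so reads in overlaps on opposite strands cannot be assigned by strand. The overlap of Vmn2r29 with Gm45844, of 2228 bases, lies on the same strand, where marking strand would not help.

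Each of the 5 lists of blood cell, epithelial and stromal markers below was highest in a WT library, unlike the list of vomeronasal neuron identity above. B cell markers (8 genes, Ighm highest) summed to 104 to 262 CPM in KO and 226 to 1254 CPM in WT libraries. NK and CD8 T cell markers (9 genes, Nkg7 highest) summed to 6.60 to 81.9 CPM in KO and 73.1 to 1693 CPM in WT libraries. Both were highest in WT replicate 4, the library with the lowest Vmn2r level. Myeloid markers (8 genes, Cst3 highest) summed to 36.05 to 145 CPM in KO and 79.1 to 275 CPM in WT libraries. Erythroid markers (6 genes) summed to 0.657 to 9.27 CPM in KO and 0 to 6188 CPM in WT libraries. Epithelial and stromal markers (9 genes, Pecam1 highest; Krt8 and Krt18 at 0) summed to 83.0 to 99.3 CPM in KO and 0.288 to 164 CPM in WT libraries. Like the Vmn2r sum, the last list was lowest in WT replicate 4. The part of these 5 lists in the Vmn2r values was not tested.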

How the data were processed

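RNA of sorted Treg cells was made into libraries with a low-input, full-length kit that does not mark strand, per the labels' protocols. The deposited table gives the authors' expected counts of each gene, which can be fractions of a read. Tools in the submitters' processing notes are RSEM, HISAT2, StringTie, fastp and DESeq2, with mm10 as the build and no roles or versions. The annotation release counted on was not given in the sources used. The authors' group mean columns were not used.

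Counts were rounded and tested in R 4.3.3 with edgeR 4.0.16 (filterByExpr with a minimum count of 10, TMM, quasi-likelihood test, KO minus WT, two-sided, no covariates, 8 libraries), with Benjamini-Hochberg adjustment over 14755 genes and a threshold of 0.05. Alternatives were DESeq2 1.42.0, its size factors, no filter, thinning, a replicate block, other scales of the sum, and fits with libraries left out. Levels are CPM, and normalised CPM uses TMM factors. The edgeR procedure was also run on simulated counts, and the outcome is not reported here. No power is given for the absence of edgeR calls. Coordinates, exons and 31-base words came from GENCODE M21. Libraries of a group differed by more than sampling noise (chi-square per degree of freedom at least 58.3).

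Members and the 11 gene lists were chosen with earlier results of these data known. Named were members that passed the filter, the 20 with the highest summed CPM, Vmn2r1, Vmn2r2, Vmn2r26, Vmn2r88 and Vmn2r116, and the leading genes of each list.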

Additional observations from a re-analysis of the deposited data

Results flagged for a closer look

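Of 26 groups of 4 or more libraries examined for a library far from the others, 2 held one, and chance alone marks about 1 in 20 independent groups. Only WT has 4 or more libraries, so the groups read the same 5 libraries and are not independent. Vmn2r114 was at 104 CPM in WT replicate 4, where the gap to the next WT library was 0.733 of the whole range. The sum of the family was also lowest in that library, at 548 CPM, and Vmn2r114 held 19.0% of it. Vmn2r96 was at 152 CPM in WT replicate 3, with a gap of 0.745 of the range to the next WT library.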

How the results depend on the processing

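In 1059 pairs of a tested member and an alternative, 1029 log2 changes kept their direction and 30 turned, and 63 of 72 members had a single direction throughout. Members called were 0 in either direction under each edgeR alternative, including each fit without 1 library, whereas DESeq2 called 8 higher and 1 lower. Over all genes DESeq2 called 945 higher and 1476 lower, and edgeR without a filter called 1 higher. The log2 ratio of mean summed levels, 2.02 in CPM, was 0.91 in counts not divided by the total and -0.41 per count of Vmn1r and Olfr genes, both chosen after seeing the data, and 1.46 after TMM scaling. Leaving out 1 library gave 1.75 to 2.33, and leaving out WT replicates 4 and 5, also chosen later, 1.63. For the difference in members detected, 9.93 in the main setting, leaving out 1 library gave 4.83 to 14.1. Thinning gave 20.07, but from rounded counts, so that value is not strictly comparable with the others.

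Same-numbered libraries did not deviate together (correlations 0.017, 0.020 and 0.047), so the numbers were not taken as pairs. With the replicate block 0 members were called, and the log2 change was 0.028 for Vmn2r97, -0.12 for Vmn2r31, 2.94 for Vmn2r48, -0.18 for Vmn2r42 and -0.48 for Vmn2r22. Leaving out 1 library gave -1.21 (without KO replicate 1) to 0.067 (without WT replicate 4) for Vmn2r97, -1.26 (without KO replicate 3) to 1.92 (without WT replicate 3) for Vmn2r96, -0.27 to 1.90 for Vmn2r31, -0.41 to 0.32 for Vmn2r11, -0.84 to 1.497 for Vmn2r42, -0.71 to 0.87 for Vmn2r22 and -0.52 to 1.12 for Vmn2r32. Without WT replicates 4 and 5 it was -0.54 for Vmn2r96, 2.56 for Vmn2r48 and -0.23 for Vmn2r22. With DESeq2's size factors it was -0.037 for Vmn2r96 and -0.039 for Vmn2r10, and with DESeq2 -0.037 and -0.032. Without a filter it was -0.23 for Vmn2r96 and -0.026 for Vmn2r22. Thinning gave 0.29 for Vmn2r11. Without WT replicates 2 and 3, the 2 libraries named FY, it was 0.52 for Vmn2r11, -0.12 for Vmn2r32 and 3.95 for Vmn2r96. The causes were not tested.

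Totals of 4.31 to 17.98 M counts limit members with few counts, and shared sequence limits how reads are split among members.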
